A study of Mus musculus with 16 samples.

Results

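The nuclear-encoded subunit genes of respiratory complexes III and IV and of ATP synthase were followed in epididymal white fat of obese mice. Members were the protein-coding genes whose symbol starts with Uqcr, Cox4i, Cox5, Cox6, Cox7, Cox8 or Atp5, apart from the tissue isoforms Cox7a1 and Cox8b, with a mean of at least 1 FPKM over all 16 libraries. FPKM, the deposited unit, is the number of fragments of a gene scaled by its length and by library depth. The rule gave 39 of the 13271 genes tested: 8 of complex III, 14 of complex IV and 17 of ATP synthase. The table held 42 protein-coding gene IDs with such symbols, and 3 lay below the minimum: Cox7b2 and a second Atp5o ID, which were listed at 0 in every library, and Cox8c, which was at 0.392 FPKM in AdCre replicate 3 and listed at 0 in the other 15 libraries. A further 8 annotated pseudogenes with such symbols reached at most a mean of 0.194 FPKM. The prefixes do not reach every subunit, and Cyc1, the cytochrome c1 gene of complex III, was counted among the related genes instead.

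Complex III passes electrons from ubiquinol to cytochrome c, complex IV passes them from cytochrome c to oxygen, and both pump protons out of the mitochondrial matrix. ATP synthase lets the protons back through a rotating ring of c subunits and uses the turn to make ATP from ADP and phosphate. The catalytic core of complex IV, cytochrome b of complex III and the a subunit of ATP synthase are encoded in mitochondrial DNA, while all members described here are nuclear genes whose products are imported. White adipocytes hold fewer mitochondria than brown adipocytes, and use them in the synthesis and release of stored lipid.

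The 16 libraries were RNA-seq of epididymal fat from male C57BL/6 mice kept on a high-fat diet for 20 weeks, in 4 groups of 4. Of the mice labelled 25 weeks old, 4 libraries came from animals given vehicle and 4 from animals given tubastatin A-HCl, an inhibitor of the cytoplasmic deacetylase HDAC6. The genotype label of all 8 reads as a whole-body HDAC6 knockout, but the design text mentions no knockout and gives an age of about 28 weeks, so the genotype and age behind the drug comparison are uncertain. Of the mice labelled 28 weeks old, 4 libraries came from an adipose-specific HDAC6 knockout (AdKO) and 4 from adiponectin-Cre controls (AdCre), all labelled vehicle. Adiponectin-Cre acts in adipocytes, so other cells of the fat pad keep the gene. Hdac6, the targeted gene, stood at 4.15, 4.15, 4.74 and 3.64 FPKM in AdCre replicates 1 to 4 and at 4.11, 2.66, 3.44 and 3.52 FPKM in AdKO, where the groups overlapped (log2 fold change -0.23, limma adjusted p = 0.503). Vehicle libraries held 1.41 to 1.78 FPKM of it and tubastatin libraries 1.44 to 1.70 FPKM. Depth recovered from the FPKM steps was 18234386 to 24776803 reads per library, and the fewest reads behind any member in any library were 25. Adipoq, which marks adipocytes, was at 527 FPKM or more in every library. Of 6 epididymal genes, 2 were listed at 0 in every AdKO library but present in AdCre (Gpx5 at 5.97 FPKM in replicate 2, Adam7 at 1.91 and 5.57 FPKM in replicates 2 and 3). Epcam, Krt8 and Krt18 were at 22.8, 46.1 and 26.5 FPKM in AdCre replicate 3, above every AdKO library. In AdCre replicate 2, Krt8 (5.65 FPKM) and Krt18 (2.52 FPKM) lay within the AdKO range. Crisp1 was at 0.197 FPKM there and at up to 0.148 FPKM in AdKO. The 6 testis germ cell genes, all too low to be tested, summed to 5.13 FPKM in AdCre replicate 3. Their sum was at most 0.531 FPKM in any other library. The member counts and complex medians of the knockout comparison are also given without AdCre replicates 2 and 3.

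The members were abundant and unequal within each complex. Together they made up 1.07% ± 0.0201 (SD, n = 4) of all FPKM in AdCre, 0.929% ± 0.0540 in AdKO, 0.867% ± 0.0573 in vehicle and 0.878% ± 0.0265 in tubastatin. The 8 complex III genes lay within a 2.27-fold range of mean FPKM over the 16 libraries, from 42.5 for Uqcrc2, a core protein, to 96.4 for Uqcr10, one of the smallest subunits. Complex IV spanned a 168-fold range, from 2.33 FPKM for Cox6b2, an isoform best known from testis, to 392 FPKM for Cox8a. ATP synthase spanned a 60.1-fold range, from 3.70 FPKM for Atp5s, a coupling factor outside the core enzyme, to 222 FPKM for Atp5b, the catalytic beta subunit. The low end of complex IV was held by tissue isoforms (Cox6b2, Cox4i2 at 3.10 and Cox6a2 at 3.62 FPKM), and every other member of that complex averaged at least 26.4 FPKM.

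Promoter sequence was taken from RefSeq on GRCm38.p6, as 250 bases before to 50 bases after the annotated start of each gene, and 30 of the 39 members had an entry (33 promoters). No entry was used for Atp5mpl, Cox4i1, Cox4i2, Cox6a2, Cox6c, Uqcrb, Uqcrc2, Uqcrq and Atp5a1. Shown are the members with an entry that had the smallest p of their complex between AdKO and AdCre, and Cox6b2, which had the smallest p with tubastatin. The windows are chr10:80406772-80407071 for Uqcr11, chr9:79759804-79760103 for Cox7a2, chr5:108434350-108434649 for Atp5k and chr7:4753045-4753344 for Cox6b2, all on the minus strand and written 5′ to 3′ in the sense of the gene. Capitals mark matches, on either strand, to the core letters known for NRF1 (GCGCNTGCG), GABP (CCGGAAG), ERR (AAGGTCA) and YY1 (AANATGGCG), which are factors known from studies of respiratory gene promoters.
Uqcr11: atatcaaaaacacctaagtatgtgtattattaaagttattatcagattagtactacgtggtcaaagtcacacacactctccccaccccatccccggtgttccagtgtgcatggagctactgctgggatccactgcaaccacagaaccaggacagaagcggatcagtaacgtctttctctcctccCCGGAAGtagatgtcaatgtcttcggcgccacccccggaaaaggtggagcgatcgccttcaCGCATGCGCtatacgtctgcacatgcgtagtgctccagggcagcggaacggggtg
Cox7a2: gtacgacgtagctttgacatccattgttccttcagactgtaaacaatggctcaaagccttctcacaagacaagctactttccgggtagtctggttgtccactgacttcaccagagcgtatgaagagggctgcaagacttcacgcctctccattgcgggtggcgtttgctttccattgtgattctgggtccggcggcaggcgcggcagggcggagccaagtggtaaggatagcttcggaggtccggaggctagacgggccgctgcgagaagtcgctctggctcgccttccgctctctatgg
Atp5k: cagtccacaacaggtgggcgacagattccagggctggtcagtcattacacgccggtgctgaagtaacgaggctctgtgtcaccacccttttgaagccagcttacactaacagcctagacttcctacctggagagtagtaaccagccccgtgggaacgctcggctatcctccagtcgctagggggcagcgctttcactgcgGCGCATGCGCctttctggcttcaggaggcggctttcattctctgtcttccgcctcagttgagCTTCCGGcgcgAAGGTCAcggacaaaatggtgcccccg
Cox6b2: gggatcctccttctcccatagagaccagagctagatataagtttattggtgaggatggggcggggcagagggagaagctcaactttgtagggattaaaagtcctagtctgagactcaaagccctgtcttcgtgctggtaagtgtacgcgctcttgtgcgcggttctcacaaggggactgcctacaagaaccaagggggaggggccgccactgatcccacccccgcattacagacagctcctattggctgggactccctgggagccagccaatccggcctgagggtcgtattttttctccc
The Atp5k window held a palindromic NRF1 match on both strands from base -50, a GABP match at 13 and an ERR match at 24, counted from the start. Uqcr11 held a GABP match at -66 and an NRF1 match at -5, while the windows of Cox7a2 and Cox6b2 held none of the 4. The NRF1 letters were present in 36.4% of the member promoters, against 12.8% of the promoters of protein-coding genes tested and 6.31% of all promoters of the same length. The GABP letters were present in 30.3% of member promoters against 17.1% and 8.86%, the ERR letters in 12.1% against 3.19% and 4.72%, and the YY1 letters in 9.09% against 4.90% and 2.38%. The ERR and YY1 shares rest on 4 and 3 of the 33 member promoters. At least 1 of the 4 was found in 19 of 30 members, and the like share over other promoters was not computed. The median GC content was 56.3% in member promoters and 60.7% in promoters of protein-coding genes tested. A match describes letters in this window and does not show binding.

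Between AdKO and AdCre, subunit genes of all 3 complexes stood lower in the knockout libraries, by amounts that no single gene carried past the test over all genes. With limma no gene of the 13271 passed an adjusted p of 0.05 (0%, members included; the smallest adjusted p was 0.191), and limma voom on recovered reads called 0 as well. With 1 spread shared by all 16 libraries limma called 43 genes, Cox7a2 (adjusted p = 0.0167) and Atp5k (adjusted p = 0.0455) among them, while over all settings their adjusted p reached 0.801 and 0.771. At an unadjusted p under 0.05 stood 21 of the 39 members (53.8%), against 10.9% of all genes tested. All 21 were lower in AdKO, against 6.16% of all genes at that p and lower. That count was 13 without AdCre replicate 4 and 13 after quantile normalization. Every AdKO library lay below every AdCre library for 16 members (41.0%), against 3.70% of all genes tested, and for no member did every AdKO library lie above, against 2.78% of all genes. The fold change was negative for 36 of 39 members, against 49.1% of all genes. The median log2 fold change was -0.23 over complex III, -0.20 over complex IV, -0.18 over ATP synthase and 0.0041 over all genes tested. In bulk tissue, fewer cells of a type and less RNA per cell cannot be told apart.

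**Figure D1:**
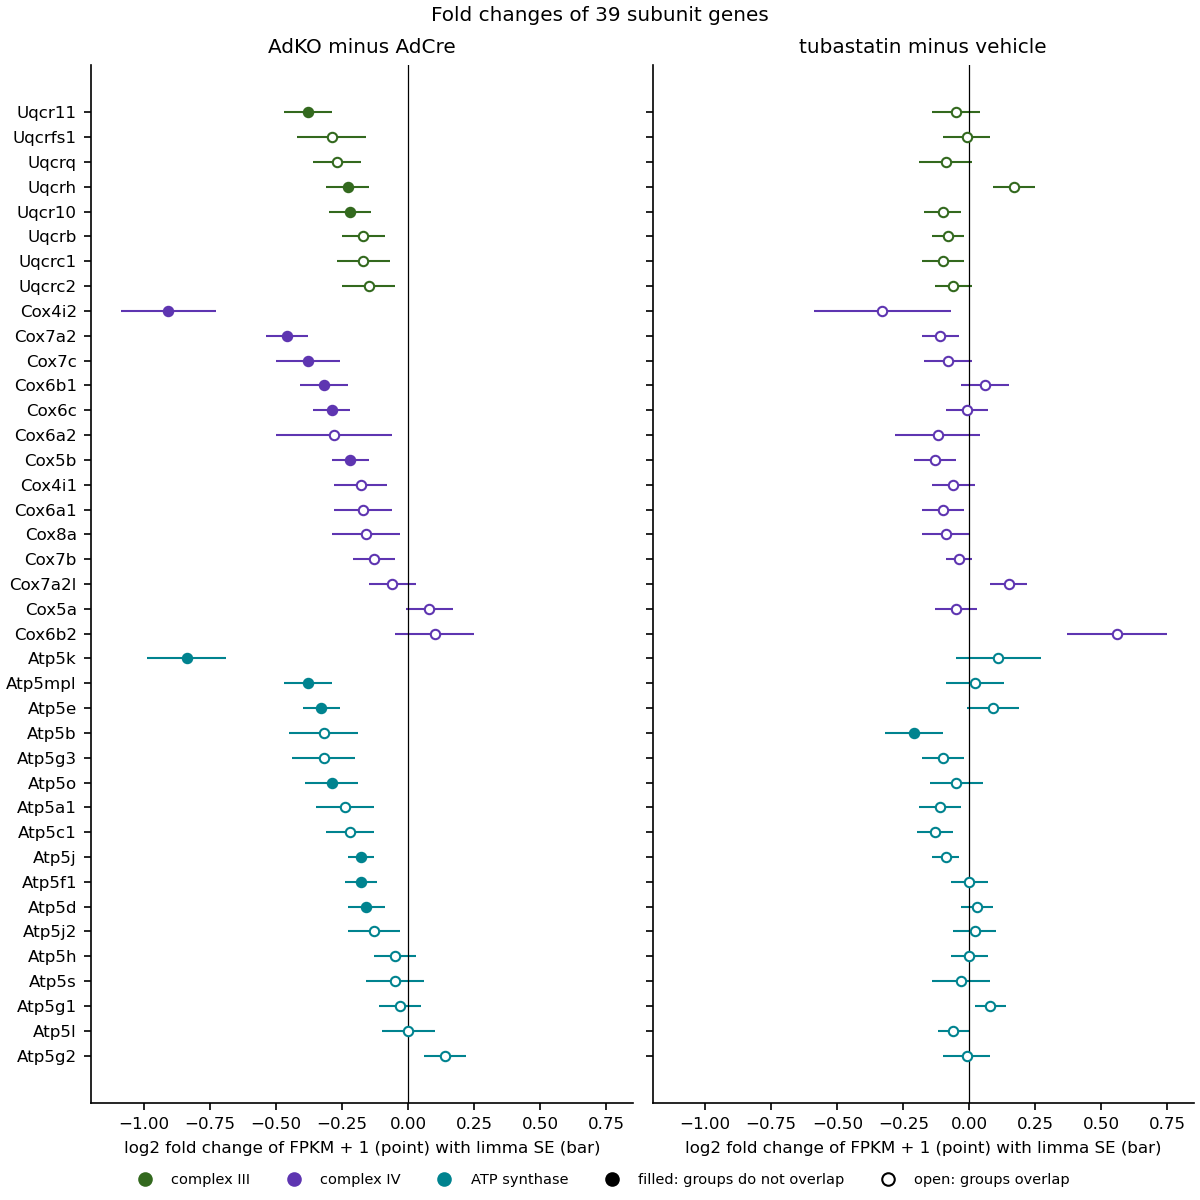
Log2 fold change of FPKM + 1 (x axis) with the limma standard error for each of the 39 subunit genes (y axis), AdKO minus AdCre on the left and tubastatin minus vehicle on the right. Filled points are genes whose 4 libraries of one group all lie on one side of the other 4: 16 on the left, all below 0, and 1 on the right.

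All 8 genes of complex III had a negative fold change in the knockout, from -0.15 for Uqcrc2 to -0.38 for Uqcr11, and 3 separated the groups. Uqcr11 (ENSMUSG00000020163), a small subunit at chromosome 10, 80402997 to 80406830 on the minus strand of GRCm38, stood at 99.9, 114, 87.6 and 103 FPKM in AdCre replicates 1 to 4. It stood at 73.8, 76.1, 83.6 and 75.9 FPKM in AdKO. All 4 AdKO values lay below the lowest control, AdCre replicate 3, and the AdKO mean was 76.6% of the control mean (log2 fold change -0.38, SE 0.09, limma adjusted p = 0.300). Uqcrq, a subunit beside the quinone pocket, stood at 52.8, 58.4, 52.1 and 55.4 FPKM in AdCre and 43.8, 43.0, 52.4 and 41.4 FPKM in AdKO (log2 fold change -0.27, SE 0.09, limma adjusted p = 0.369). AdKO replicate 3 reached the range of the controls and the other 3 stayed below it. Uqcrh, the acidic hinge protein that helps cytochrome c1 meet cytochrome c, stood at 77.6, 75.3, 76.4 and 80.0 FPKM in AdCre and 74.2, 58.1, 65.1 and 66.8 FPKM in AdKO. Its groups did not overlap, though AdKO replicate 1 came within a small distance of the controls (log2 fold change -0.23, SE 0.08, limma adjusted p = 0.419). Uqcr10, the most abundant member of the complex, was at 110.1, 118, 110.1 and 114 FPKM in AdCre and 97.1 ± 8.39 FPKM (SD, n = 4) in AdKO, from 84.8 to 104 (log2 fold change -0.22, SE 0.08, limma adjusted p = 0.421). The groups of Uqcr10 were also apart, with AdKO replicate 4 lowest. The 4 others were Uqcrfs1, the Rieske iron-sulfur protein that hands electrons to cytochrome c1 (-0.29), Uqcrb (-0.17) and the core proteins Uqcrc1 (-0.17) and Uqcrc2 (-0.15), and their groups overlapped. For Uqcrc2, the lowest member, the values were 44.3, 47.6, 47.0 and 51.3 FPKM in AdCre and 39.7, 44.6, 49.7 and 37.4 FPKM in AdKO.

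In complex IV, 12 of 14 genes had a negative fold change in the knockout and 6 separated the groups (Cox7a2, Cox4i2, Cox6c, Cox6b1, Cox5b and Cox7c). Cox5a (0.08, SE 0.09) and Cox6b2 (0.10, SE 0.15) were slightly positive, within their standard errors. Cox7a2 (ENSMUSG00000032330), the widely expressed isoform of subunit 7a at chromosome 9, 79755361 to 79759878 on the minus strand, stood at 75.8, 77.9, 76.7 and 75.5 FPKM in AdCre. In AdKO it stood at 55.9, 59.1, 57.6 and 48.8 FPKM. The AdCre libraries lay close together, and every AdKO library was far below them, with a mean at 72.4% of the control mean (log2 fold change -0.46, SE 0.08, limma adjusted p = 0.203). Cox4i2, an isoform of subunit 4 known for its response to low oxygen, stood at 4.33, 5.48, 5.52 and 6.05 FPKM in AdCre and 1.86, 3.25, 3.11 and 1.56 FPKM in AdKO. Its level was low but the groups were apart, and the AdKO mean was 45.7% of the control mean (log2 fold change -0.91, SE 0.18, limma adjusted p = 0.214). Cox6c, which lies in the membrane part of the complex, stood at 31.3 ± 1.27 FPKM (SD, n = 4) in AdCre and 25.5 ± 1.52 FPKM in AdKO (-0.29 on the log2 scale, SE 0.07, adjusted p from limma 0.288). Cox6b1, which joins the monomers of the complex on the side of cytochrome c, was at 207, 205, 194 and 203 FPKM in AdCre and 180.5, 159.5, 168 and 142 FPKM in AdKO. All AdKO values of Cox6b1 were below the controls (log2 fold change -0.32, SE 0.09, limma adjusted p = 0.327). Cox7c (-0.38) and Cox5b (-0.22), a zinc-binding subunit facing the matrix, also separated the groups. Cox8a, the most abundant member, was at 429, 490.1, 432 and 462 FPKM in AdCre and 428, 431, 449 and 321 FPKM in AdKO, where replicate 4 alone was far below the rest (log2 fold change -0.16, SE 0.13, limma adjusted p = 0.639). Groups overlapped as well for Cox4i1 (-0.18), Cox6a1 (-0.17), Cox6a2 (-0.28), Cox7b (-0.13) and Cox7a2l (-0.06, and 0.01 after quantile normalization).

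In ATP synthase, 16 of 17 genes had a negative fold change in the knockout and 7 separated the groups. They came from several parts of the enzyme: Atp5d and Atp5e of the central stalk, Atp5f1, Atp5j and Atp5o of the peripheral stalk, and Atp5k and Atp5mpl of the membrane part. Atp5k (ENSMUSG00000050856), the e subunit known for holding ATP synthase dimers together, lies at chromosome 5, 108433244 to 108434448 on the minus strand. It stood at 41.5, 50.7, 35.4 and 44.1 FPKM in AdCre and 23.2, 18.9, 22.8 and 29.3 FPKM in AdKO. The highest AdKO value was below the lowest control, and the mean was 54.9% of the control mean (log2 fold change -0.84, SE 0.15, limma adjusted p = 0.203). Atp5e, the epsilon subunit of the central stalk, was at 56.2, 53.9, 49.5 and 50.6 FPKM in AdCre and 44.0, 40.1, 39.1 and 42.6 FPKM in AdKO. Its groups were apart with a small spread in each (log2 fold change -0.33, SE 0.07, limma adjusted p = 0.242). Atp5mpl, a small membrane protein of the enzyme, stood at 40.5 ± 2.44 FPKM (SD, n = 4) in AdCre and 31.0 ± 3.62 FPKM in AdKO (-0.38 on the log2 scale, SE 0.09, adjusted p from limma 0.300). Of the other stalk genes that separated the groups, Atp5o, the oligomycin sensitivity protein, was at -0.29, Atp5j and Atp5f1 at -0.18 each and Atp5d at -0.16. Among the F1 head genes, Atp5b stood at 243, 280.3, 272 and 288 FPKM in AdCre and 188, 237, 262 and 187 FPKM in AdKO, and Atp5a1, the alpha subunit, had a log2 fold change of -0.24. Both overlapped between groups, because AdKO replicates 2 and 3 came near or into the range of the controls (Atp5b -0.32, SE 0.13, limma adjusted p = 0.448). Atp5c1, the gamma subunit that turns inside the head, stood at -0.22. The remaining genes were close to their controls: Atp5j2 at -0.13, the peripheral stalk gene Atp5h at -0.05, and Atp5l, the g subunit that partners Atp5k, at 12.3 ± 0.347 FPKM (SD, n = 4) in AdCre and 12.3 ± 1.80 FPKM in AdKO. The sign turned to positive for Atp5h after quantile normalization (0.03) and for Atp5l after rescaling to TPM (0.01). Atp5s was at 4.30, 3.12, 4.20 and 4.52 FPKM in AdCre and 3.99, 4.01, 4.19 and 3.22 FPKM in AdKO.

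**Figure D2:**
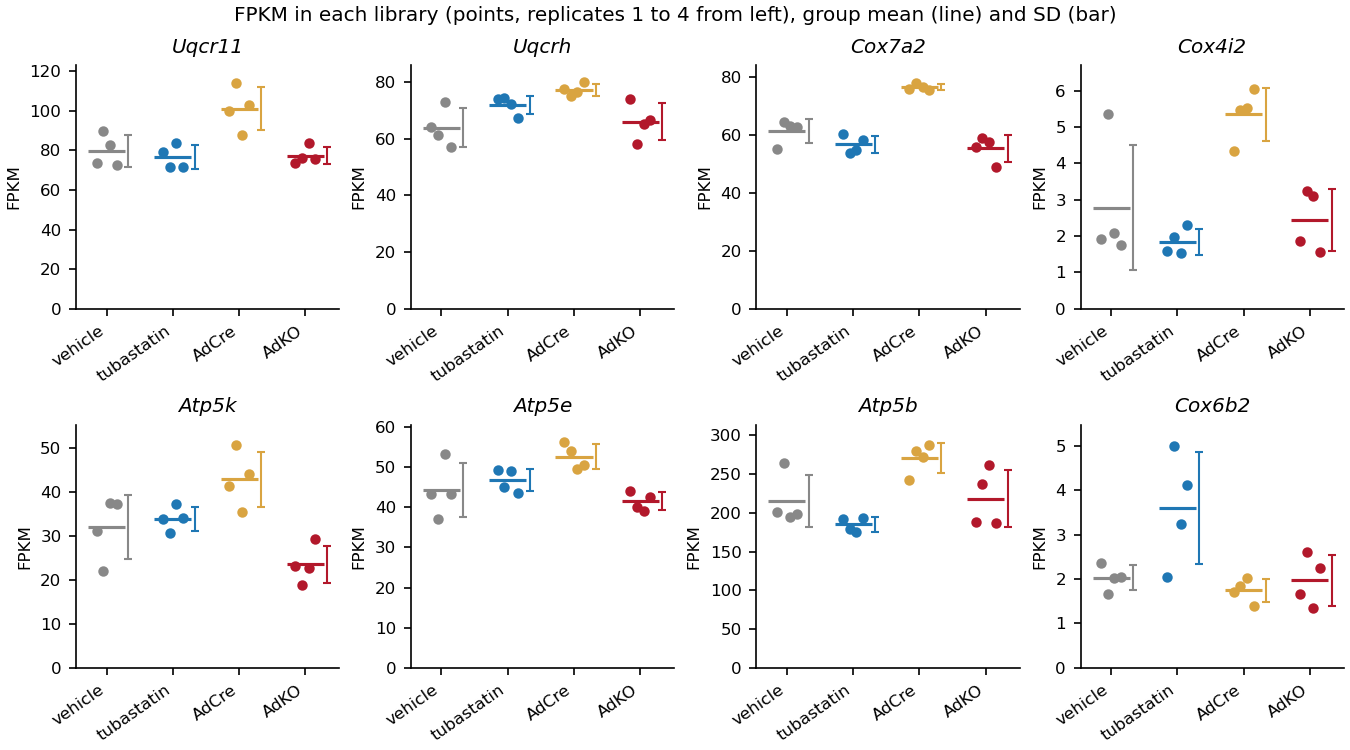
FPKM of 8 named subunit genes in each library (points, replicates 1 to 4 from left), with the group mean (line) and SD (bar), for vehicle, tubastatin, AdCre and AdKO. Atp5k, Cox7a2, Cox4i2, Atp5e, Uqcr11 and Uqcrh have all AdKO points below all AdCre points, Atp5b has all tubastatin points below all vehicle points, and Cox6b2 reaches 4.99 FPKM in tubastatin replicate 2.

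The c ring is made from 3 genes for 1 protein, and whether their fold changes differ was not tested. Atp5g1, Atp5g2 and Atp5g3 encode the same mature c subunit with different import sequences. Atp5g3, the most abundant, stood at 87.0, 102, 89.3 and 96.7 FPKM in AdCre and 69.2, 73.3, 93.2 and 66.7 FPKM in AdKO (log2 fold change -0.32, SE 0.12, limma adjusted p = 0.419). Atp5g2 stood at 42.0, 41.5, 41.6 and 43.7 FPKM in AdCre and 52.0, 42.1, 43.6 and 49.1 FPKM in AdKO (log2 fold change 0.14, SE 0.08, limma adjusted p = 0.558). In 3 AdKO libraries Atp5g3 was thus below all controls, while no AdKO library had less Atp5g2 than the lowest control. Atp5g1 stood at 11.4, 9.52, 9.27 and 9.43 FPKM in AdCre and 9.79, 9.22, 9.14 and 10.6 FPKM in AdKO. Of the summed FPKM of the 3 genes, Atp5g3 made up 64.2% ± 1.96 (SD, n = 4) in AdCre and 57.1% ± 5.34 in AdKO, and 57.3% ± 3.41 in vehicle and 55.4% ± 1.14 in tubastatin.

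Ratios of paralogous subunits of complex IV are given as a description, without a test. Cox4i2 was 2.14, 2.56, 2.53 and 2.84% of Cox4i1 in AdCre and 0.871, 1.87, 1.59 and 0.923% in AdKO, without overlap. Cox4i1, the common isoform of subunit 4, was at 202, 214, 218 and 214 FPKM in AdCre and 214, 173, 196 and 169 FPKM in AdKO. The gap therefore came mostly from the low-level isoform. Cox7a2l, a relative of subunit 7a known for tying complexes III and IV together and present in C57BL/6 mice as a short form, was 161, 146, 163 and 154% of Cox7a2 in AdCre and 230.4, 179, 187 and 238% in AdKO. With tubastatin the same ratio was 238, 257, 235 and 224%, against 211, 183, 215 and 189.9% in vehicle. AdKO and tubastatin each lay above their own controls without overlap. Cox7a2l itself was at 122, 113, 125 and 116 FPKM in AdCre and 129, 105, 108 and 116 FPKM in AdKO, so the ratio followed Cox7a2 there. Cox6a2, the isoform of subunit 6a known from heart and skeletal muscle, stood at 5.02, 4.58, 5.14 and 4.36 FPKM in AdCre and 6.17, 2.35, 2.89 and 4.47 FPKM in AdKO, with the highest and the lowest value both in AdKO. Its common partner Cox6a1 was at 341, 341, 315 and 326 FPKM in AdCre and 311, 305, 317 and 247 FPKM in AdKO. Skeletal muscle markers (3 of 7 tested) summed to 16.1 to 24.2 FPKM in AdCre and 10.5 to 31.1 FPKM in AdKO, and AdKO replicate 1, the highest for Cox6a2, had the lowest sum. Macrophage markers summed to 2579, 2054, 1582 and 2404 FPKM in AdCre and 3585, 1935, 1985 and 3174 FPKM in AdKO. Cox6a2 overlaps the gene Itgad on the opposite strand. The part of muscle, macrophages or Itgad reads in the Cox6a2 values was not tested. Cox6b2 was 0.830, 0.899, 1.04 and 0.681% of Cox6b1 in AdCre and 0.918, 1.64, 0.801 and 1.59% in AdKO.

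**Figure D3:**
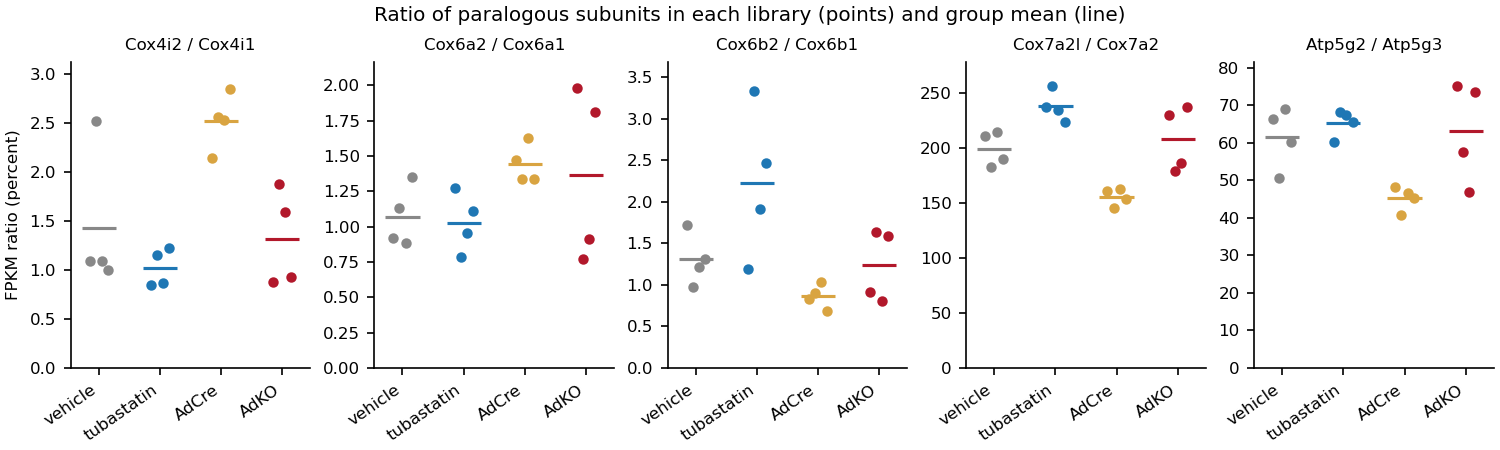
FPKM ratio of paralogous subunits, in percent (y axis), in each library (points) with the group mean (line) for the 4 groups. The ratio of Cox7a2l to Cox7a2 has a mean of 156% in AdCre against 209% in AdKO and 199.6% in vehicle against 239% in tubastatin, and that of Cox4i2 to Cox4i1 has a mean of 2.52% in AdCre against 1.31% in AdKO.

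The level of each complex in a library was taken as the mean over its members of log2(FPKM + 1), each centred on its mean over 16 libraries. Complex III was at 0.17, 0.25, 0.15 and 0.27 in AdCre replicates 1 to 4 and at -0.02, -0.05, 0.11 and -0.14 in AdKO. Complex IV was at 0.18, 0.23, 0.19 and 0.18 in AdCre and 0.07, -0.09, -0.05 and -0.10 in AdKO. ATP synthase was at 0.16, 0.18, 0.16 and 0.21 in AdCre and 0.02, -0.09, 0.02 and -0.08 in AdKO. In all 3 complexes every AdKO library lay below every AdCre library, and which AdKO library came nearest differed between complexes. The adipocyte marker list (12 of 12 tested) had levels of 0.21, 0.72, 0.51 and 0.51 in AdCre and -0.26, 0.63, 0.73 and -0.44 in AdKO, with sums of 6425 to 8343 FPKM and 3746 to 8151 FPKM. The adipocyte levels of AdKO replicates 2 and 3 lay within or just above the AdCre range, and those of AdKO replicates 1 and 4 lay below it. The part of adipocyte content in the complex levels was not tested. Other marker sums were 180.5 to 249 FPKM in AdCre and 151 to 211 FPKM in AdKO for endothelial genes (6 of 6 tested), 1582 to 2579 and 1935 to 3585 for macrophage genes (8 of 8), 47.6 to 90.5 and 83.9 to 173 for mesothelial genes (6 of 6), and 27.4 to 51.6 and 13.1 to 25.2 for thermogenic adipocyte genes (4 of 7). Macrophage genes were positive in 7 of 8, and the other immune cell lists also had mostly positive fold changes. Neutrophil genes (4 of 6 tested) summed to 23.7 to 43.4 FPKM in AdCre and 16.4 to 147 FPKM in AdKO, with a median log2 fold change of 1.14 and 3 of 4 positive and at an unadjusted p under 0.05. Of these, S100a9 had a mean of 3.23 FPKM in AdCre and 39.8 FPKM in AdKO. T and NK cell genes (9 of 9 tested, all positive) summed to 6.50 to 13.7 FPKM and 11.0 to 29.5 FPKM, and B cell genes (4 of 4 tested, all positive) to 5.03 to 18.0 FPKM and 4.21 to 30.9 FPKM. The sums of these 3 lists overlapped between the groups. Adipose progenitor genes (6 of 6) summed to 495 to 590.1 FPKM and 503 to 797 FPKM. The thermogenic sum, which holds Cox7a1 and Cox8b, was lower in every AdKO library and its part in the result was not tested. The part of the other marker lists was not tested either. Leaving out AdCre replicates 2 and 3 was an alternative chosen after the data were seen. Without them 9 members stood at an unadjusted p under 0.05, and the medians were -0.24, -0.22 and -0.18 for complexes III, IV and ATP synthase. Then 20 members separated the groups, but groups separate more easily with fewer controls. The share over all genes at this setting is not given, so the 20 cannot be set beside the count with all libraries.

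**Figure D4:**
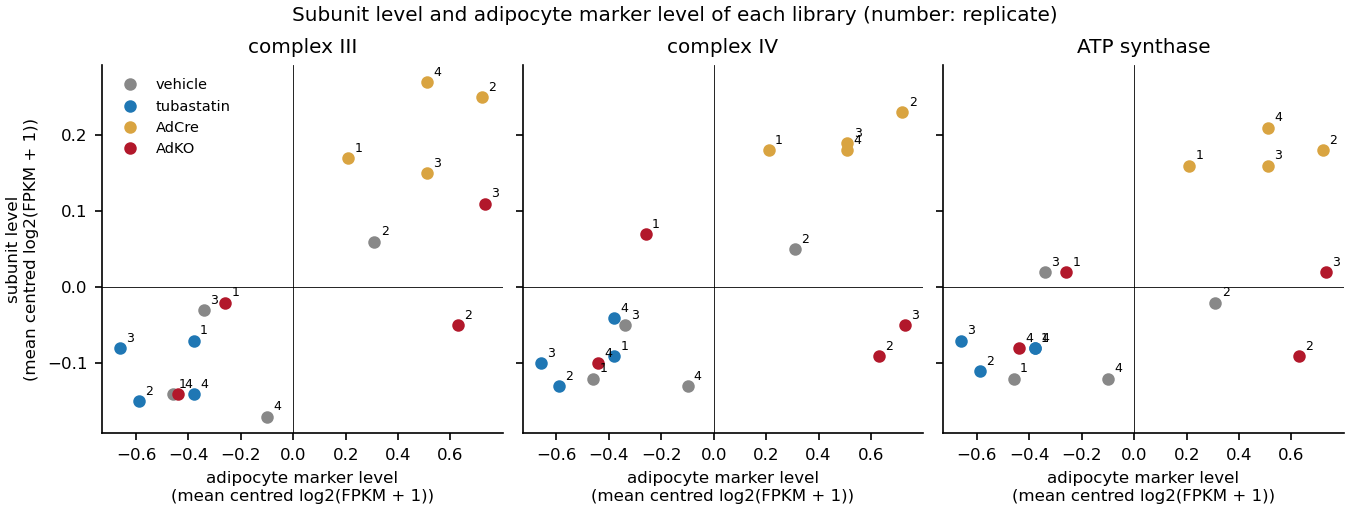
Level of each complex (y axis, mean centred log2(FPKM + 1) over its members) against the level of 12 adipocyte marker genes (x axis, same scale) in each of 16 libraries, coloured by group and numbered by replicate. All AdKO libraries lie below all AdCre libraries in each panel, replicates 2 and 3 at adipocyte levels of 0.63 and 0.73 and replicates 1 and 4 at -0.26 and -0.44.

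The members were also set beside protein-coding genes of like length. In the shortest class, up to 500 bases, there were 35 genes and no member, with a median log2 fold change of 0.05 in AdKO and 8.57% lower without overlap. The 10 of them with a mean of at least 20 FPKM had a median of -0.19. Among protein-coding genes with a summed exon length of 500 to 1000 bases, 11.0% lay lower in AdKO without overlap, against 6.17% at 1000 to 2000, 4.44% at 2000 to 4000 and 2.93% above 4000 bases. The members gave 6 of 10, 7 of 16, 2 of 8 and 1 of 5 in these classes. Their median log2 fold change was -0.30, -0.22, -0.17 and -0.17, against -0.07, -0.02, -0.01 and 0.01 for all protein-coding genes of the class. For genes of the class with a mean of at least 20 FPKM it was -0.09, -0.03, -0.03 and -0.01. Within each of these classes the median of the members was further below 0 than that of the class. What length has to do with the members' values was not tested.

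**Figure D5:**
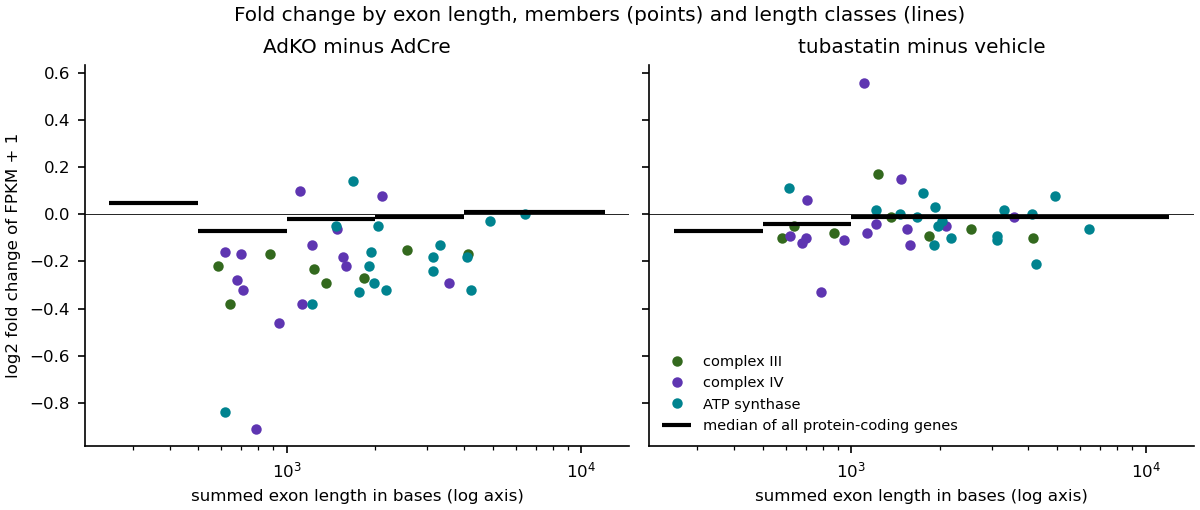
Log2 fold change of FPKM + 1 (y axis) against summed exon length in bases (log axis) for the 39 members (points, coloured by complex), with the median of all protein-coding genes in 5 length classes (lines), AdKO minus AdCre on the left and tubastatin minus vehicle on the right. On the left the members of 500 to 1000 bases have a median of -0.30 where the class has -0.07.

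Genes working beside the members were read from lists by role. Of the nuclear subunits of complex I (Nduf), all 38 had a negative fold change in AdKO, 15 lower without overlap, with a median of -0.20. Cycs, the cytochrome c that carries electrons between complexes III and IV, was at 33.6 ± 2.82 FPKM (SD, n = 4) in AdCre and 24.6 ± 4.02 FPKM in AdKO, with the groups apart (-0.45 on the log2 scale, limma adjusted p = 0.312), and Cyc1 stood at -0.28. Of 20 tested assembly factors of complex IV, 17 were negative and 5 lower without overlap (median -0.12). The smallest p in that list belonged to Coa6, which helps bring copper to the complex (-0.30), followed by Cmc1 (-0.24) and Coa7 (-0.35). Of 5 tested assembly factors of complex III, 3 were negative, with a median of -0.01, and the difference between these lists was not tested. Of 6 assembly factors and inhibitors of ATP synthase, 5 were negative, and Fmc1, a factor known in yeast for assembly of the F1 head, stood at 9.27 ± 0.708 FPKM in AdCre and 6.14 ± 1.16 FPKM in AdKO (-0.54, limma adjusted p = 0.269). The 4 subunits of complex II were all negative (median -0.16), as were the 3 carriers of ADP, ATP and phosphate (-0.12), and 13 of 14 genes of mitochondrial membranes and import (-0.17). The 2 tissue isoforms left out by the rule had a median of -0.81, with Cox8b at 22.0 ± 7.39 FPKM in AdCre and 9.70 ± 3.32 FPKM in AdKO, which overlapped. No gene of these lists passed the limma test after adjustment.

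Transcripts of the subunits encoded in mitochondrial DNA and of the regulators were read in the same way. Of the 6 mitochondrial genes of the 3 complexes, 5 were negative (median -0.24), and none separated the groups, and mt-Atp8 was at 1.89 ± 0.786 FPKM in AdCre and 2.81 ± 0.886 FPKM in AdKO. Of 8 tested transcription factors and coactivators of respiratory genes, 3 were negative and 5 positive, with a median of 0.01. Gabpa, a subunit of GABP, had a log2 fold change of 0.07 and Nrf1 one of 0.07. Ppargc1a, the coactivator best known for driving mitochondrial genes, was below the minimum at 0.727 ± 0.441 FPKM in AdCre and 0.527 ± 0.186 FPKM in AdKO, and Ppargc1b was at -0.25 (limma adjusted p = 0.517). Among the 16 members that separated the groups, 13 had a promoter entry and 9 of these held at least 1 of the 4 motifs. The figures for the other 23 members were 17 and 10.

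With tubastatin, the complexes did not separate from vehicle. The tubastatin means of the members ran from 66.3% (Cox4i2) to 178% (Cox6b2) of the vehicle means, both genes of low level. Limma called none of the 13271 genes (0%; smallest adjusted p 0.128), and voom on recovered reads called 0. A single member stood at an unadjusted p under 0.05, against 12.0% of all genes. A single member, Atp5b, lay lower in tubastatin without overlap, against 3.62% of all genes, and no member lay higher, against 3.53%. The fold change was negative for 29 of 39 members (74.4%), against 54.6% of all genes. The medians were -0.07 for complex III, -0.07 for complex IV and -0.01 for ATP synthase, beside -0.01 over all genes. By exon length (500 to 1000, 1000 to 2000, 2000 to 4000 and above 4000 bases) the member medians were -0.10, -0.01, -0.06 and -0.06. Protein-coding genes of these classes with a mean of at least 20 FPKM had medians of -0.05, -0.02, -0.05 and -0.06, so abundant genes in general lay about as low. After rescaling to TPM only 16 were negative and 23 positive, with a member median of 0.02 beside 0.06 over all genes, so the balance of signs depended on the scaling. The median standard error of a member was 0.08.

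Cox6b2 had the smallest p of the members with the drug. It stood at 2.36, 1.67, 2.02 and 2.05 FPKM in vehicle and 2.04, 4.99, 3.25 and 4.11 FPKM in tubastatin. Tubastatin replicates 2 to 4 were above all vehicle libraries and replicate 1 was among them (log2 fold change 0.56, SE 0.19, limma adjusted p = 0.360). Cox6b2 was 1.72, 0.975, 1.22 and 1.31% of Cox6b1 in vehicle and 1.19, 3.34, 1.91 and 2.47% in tubastatin, so it remained a small part of subunit 6b transcripts. Cox7a2l was at 117, 118, 135 and 119.5 FPKM in vehicle and 144, 138, 129 and 130.4 FPKM in tubastatin (log2 fold change 0.15, SE 0.07, limma adjusted p = 0.439). Only vehicle replicate 3 reached into the tubastatin range. Atp5b was at 201, 265, 195 and 198 FPKM in vehicle and 192, 179, 175 and 194 FPKM in tubastatin, where the groups were apart by a narrow margin and vehicle replicate 2 was high (log2 fold change -0.21, SE 0.11, limma adjusted p = 0.464). Uqcrh was at 64.2, 61.2, 73.2 and 57.0 FPKM in vehicle and 74.0, 74.4, 72.3 and 67.3 FPKM in tubastatin (log2 fold change 0.17, SE 0.08, limma adjusted p = 0.433), the one positive value in complex III. Uqcr10 was at 86.7, 92.3, 97.6 and 86.5 FPKM in vehicle and 83.7, 78.8, 90.3 and 85.5 FPKM in tubastatin (-0.10, SE 0.07, limma adjusted p = 0.543). Atp5j, coupling factor 6 of the peripheral stalk, was at 24.2, 26.1, 25.6 and 24.2 FPKM in vehicle and 23.0, 22.6, 24.2 and 24.0 FPKM in tubastatin (-0.09, SE 0.05, limma adjusted p = 0.485). For these last genes the groups overlapped. Cox4i2 showed the weight of 1 library: vehicle read 1.92, 5.35, 2.09 and 1.74 FPKM and tubastatin 1.59, 1.96, 1.52 and 2.29 FPKM (-0.33, SE 0.26). Without vehicle replicate 2 the log2 fold change was -0.04. Vehicle replicate 2 also had the highest adipocyte marker level of its group (0.31, against -0.46 to -0.10 in the other 3). The same library was the highest of its group for endothelial genes (level 0.28, against -0.53 to -0.37). It was the lowest for macrophage (-0.29) and mesothelial genes (-0.52). Adipocyte levels were -0.66 to -0.38 in tubastatin, and their part in these values was not tested. Neutrophil genes (4 of 6 tested, all positive) summed to 10.5 to 17.5 FPKM in vehicle and 17.6 to 38.7 FPKM in tubastatin. The epididymal list (3 of 6 tested, 2 positive) summed to 4.23 to 13.6 FPKM and 14.2 to 27.5 FPKM. T and NK cell genes (8 of 9 negative) summed to 24.1 to 49.0 FPKM and 13.8 to 28.2 FPKM, with overlap. The part of these and the other marker lists was not tested either.

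The difference between the knockout effect and the drug effect was tested over all 16 libraries. No gene passed (limma, 0% of 13271; smallest adjusted p 0.0882, and voom called 0), and 9 of 39 members stood at an unadjusted p under 0.05, against 9.03% of all genes. All 9 were negative, against 4.46% of all genes at that p and negative. The difference was negative for 36 of 39 members, against 49.4% of all genes, with a member median of -0.15. Atp5k gave -0.95 (SE 0.23, limma adjusted p = 0.212), from -0.84 in the knockout and 0.11 with the drug. In vehicle it was at 31.1, 22.1, 37.6 and 37.3 FPKM and in tubastatin at 33.9, 30.6, 37.3 and 34.1 FPKM, with overlap. Atp5e gave -0.42 (SE 0.13, limma adjusted p = 0.340), Uqcrh -0.40 (SE 0.11, limma adjusted p = 0.302), Cox6b1 -0.38 (SE 0.12, limma adjusted p = 0.358), Cox7a2 -0.35 (SE 0.10, limma adjusted p = 0.282) and Uqcr11 -0.32 (SE 0.13, limma adjusted p = 0.476). The effects of these members were therefore not shown to differ between the comparisons.

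Some member values could hold reads of neighbours, since neither the counting tool nor its use of strand is known. Atp5j overlaps Gabpa (8.55 FPKM on average), Cox6a2 overlaps Itgad (9.47), Cox4i1 overlaps Emc8 (8.41), Atp5a1 overlaps Haus1 (11.8), Atp5f1 overlaps Wdr77 (4.35) and Cox6c overlaps Vps13b (2.39), each on the opposite strand. Uqcrh overlaps the pseudogene Gm12854 (2.62) and Cox7c overlaps Gm22574 (3.02). Among these, Cox6a2 at 3.62 FPKM is the one whose neighbour read higher than itself, so its values are uncertain.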

How the data were processed

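The authors deposited FPKM per gene for 16 RNA-seq libraries in 1 table, and 54495 of 54532 gene IDs matched GENCODE M21 on GRCm38. Aligner, build and counting method: not given in the sources used here. Total RNA was extracted with Trizol, treated with DNase and cleaned on columns, per the labels' protocols. All columns were mapped to a sample by name.

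Groups were compared within each cohort of 8 libraries with limma 3.58.1 (limma-trend, R 4.3.3) on log2(FPKM + 1), over the 13271 genes with a mean of at least 1 FPKM, with Benjamini-Hochberg adjustment over all of them. The difference of effects used all 16 libraries. Fold changes on this scale understate those of low genes. Tables and figures were made with Python 3.11.15, pandas 2.3.3 and matplotlib 3.10.9. The fit was tested on simulated data. FPKM times exon length gave whole reads (within 0.01) for 96.3 to 96.5% of values per library, and for 37 of 39 members, so limma voom on these reads was added as an alternative after the data were seen, as was leaving out AdCre replicates 2 and 3. The other alternatives were another pseudocount (0.1), no filter, a mean of at least 5 FPKM, TPM, median-of-ratios factors, array weights, quantile normalization, a replicate block, a spread shared by 16 libraries, and each replicate left out in turn. The labels do not say that libraries came from separate animals, and the p-values then reflect only how far these libraries spread, which may be technical. Named in full were the 2 members with the smallest p of each complex in each comparison, the most and least abundant, and the isoform pairs; the choice of other named members followed their values. The members and lists were chosen with earlier results of these data known.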

Additional observations from a re-analysis of the deposited data

Results flagged for a closer look

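In 13 of 168 groups of 4 libraries (7.74%), 1 library stood far from the other 3, where chance gives about 1 in 20. Vehicle replicate 2 was the highest of its group for Atp5a1 (234 FPKM), Atp5b (265 FPKM), Uqcrc2 (47.1 FPKM), Cox4i2 (5.35 FPKM) and Cox6a1 (320.1 FPKM). It also had the highest adipocyte (0.31) and endothelial (0.28) marker levels of that group, and the lowest macrophage level (-0.29). Other vehicle values that stood apart were Cox7a2 in replicate 1 (55.3 FPKM, lowest) and Cox7a2l in replicate 3 (135 FPKM, highest). AdKO replicate 4 was the lowest of its group for Cox6a1 (247 FPKM) and Cox8a (321 FPKM), and AdKO replicate 1 the highest for Atp5h (90.3 FPKM). AdCre replicate 1 was the highest for Atp5g1 (11.4 FPKM). In tubastatin, Atp5s was highest in replicate 3 (3.93 FPKM) and the level of ATP synthase lowest in replicate 2 (-0.11).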

How the results depend on the processing

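The knockout medians of the 3 complexes stayed below 0 under every alternative run, and leaving out each replicate gave -0.24 to -0.20 for complex III, -0.24 to -0.17 for complex IV and -0.20 to -0.16 for ATP synthase. Single members were followed under alternatives for all members in the knockout. In the other comparisons only members picked for a smallest p in their complex were followed. Of 1305 such values, 1284 kept their direction and side of the threshold and 19 changed sign. No member passed the threshold in the main fits, so the side could change only by a gain, which 2 values showed. The causes were not tested. Counts from FPKM carry an unknown counting rule, 4 libraries a group limit the test, and Cox4i2, Cox6a2 and Cox6b2 rest on few reads.

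In the drug comparison the 0 genes called became 3 without a filter, 1 with TPM and 8 with a shared spread, and 0 to 2 when leaving out each replicate. The 1 member at an unadjusted p under 0.05 became 3 without a filter, 0 at a mean of at least 5 FPKM, 4 with TPM, 3 with quantile normalization, 2 with a shared spread, and 0 to 3 leaving out replicates. Negative members numbered 16 with TPM and 23 to 30 leaving out replicates. Members lower without overlap were 0 with TPM, 0 with quantile normalization and 1 to 4 leaving out replicates, where fewer libraries make separation easier. The median of complex IV was 0.0034 with TPM, and that of ATP synthase 0.07 with TPM and 0.05 with quantile normalization.

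In the knockout comparison the 0 genes called became 2 without a filter, 43 with a shared spread (2 members) and 0 to 1 leaving out replicates. Members at an unadjusted p under 0.05 were 13 with quantile normalization, 9 without AdCre replicates 2 and 3, and 13 to 21 leaving out replicates. Leaving out replicates, 16 to 23 members were lower without overlap, where fewer libraries make separation easier. For the difference of effects, 1 gene was called without a filter, 6 with array weights and 0 to 5 leaving out replicates, and members under 0.05 were 14 with TPM and 7 to 14 leaving out replicates.

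Among the members followed singly with the drug, signs changed for Uqcr11 (TPM 0.02, quantile 0.02, and -0.10 to 0.0044 leaving out replicates). Leaving out replicates, signs also changed for Cox6b1 (-0.0026 to 0.11) and Atp5k (-0.05 to 0.20) with the drug. In the knockout they changed for Atp5l (median-of-ratios 0.0002, TPM 0.01, quantile 0.0027, without AdCre replicates 2 and 3 0.01, and -0.08 to 0.07 leaving out replicates), Atp5h (quantile 0.03), Cox7a2l (quantile 0.01), Atp5s (array weights 0.0024, and -0.14 to 0.02), Atp5g1 (-0.07 to 0.04, beside -0.09 without AdCre replicates 2 and 3) and Cox6b2 (-0.0029 to 0.21).

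Same-numbered libraries did not deviate together in the drug cohort (correlations -0.104 to 0.018). In the knockout cohort the correlations were -0.232 to 0.330, and AdCre replicates 1 (0.330) and 3 (0.206) each matched best the AdKO library of their own number. These values do not settle whether the numbers pair libraries, and the main fits used no pairing. With the replicate block 0 genes were called in each comparison, and 1494, 1564 and 1369 genes stood at an unadjusted p under 0.05 for the drug, the knockout and the difference, with 1, 20 and 9 members among them.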
